A study of Rattus norvegicus with 9 samples.

Results

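Livers of rats that had received carbon tetrachloride (CCl4) and then tormentic acid (TA) were compared with livers of normal rats, so that the comparison lists what still differed from normal liver at the end of TA treatment. The libraries were chosen by their labels alone, and they are 6 of the 9 libraries of the study, 3 from the TA group and 3 from the normal control group, each taken as 1 male Sprague–Dawley rat. In the TA group CCl4 was given into the stomach at 2 ml/kg of a 50% solution in oil, 2 times a week over 9 weeks, and TA, a triterpenoid of plants, at 3.0 mg/kg over 6 weeks. The series describes a single TA group at this dose, but the labels name its libraries TA1, TA2 and TA3 with no dose beside them, so treating them as 3 rats of 1 group is a reading of those labels. The normal rats received saline, not oil, and all rats were fasted for 12 h before the livers were taken. The TA rats thus differ from the normal rats in CCl4, in oil and in TA, and these cannot be told apart in TA VS Normal. The 3 livers of the model group, which had CCl4 and no TA, are given only beside single genes.

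CCl4 is turned into a radical by cytochrome P450 enzymes of the hepatocytes around the central vein, and repeated doses kill these cells. Stellate cells, which store vitamin A in normal liver, then become myofibroblasts that lay down collagens, elastin and the proteins that organise them. Macrophages move into the scar, and after the injury stops they and the matrix proteases take part of the scar away. Crosslinked collagen and elastic fibres are known to be slow to go.

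The reads counted on genes shared by both tables summed to between 13172763 and 18090223 per library. The 50 genes with the most reads took between 40.4% and 45.7% of them, and 14283 to 14973 genes had a count. Albumin, the defining product of hepatocytes, had deposited FPKM (read values scaled for gene length and depth) of 29546 to 43776 in the normal rats and of 28807 to 51470 in the TA rats, so that liver was present as labelled in all 6 libraries. Rats with the same number deviated together from the means of their groups in all 3 pairs. Adjusted p from a fit with that number as a block are given beside the main ones for some genes, mostly where they fell under 0.05. The block values shown are thus a selection, and a main value given alone does not mean that the block was passed. Nothing in the labels says that same-numbered rats shared a cage or a day. The block was chosen from these same data, so a gene called only with the block gains no independent support from it.

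RNA that remained higher in the TA livers included that of collagens, elastin and the proteins that organise them. At the adjusted threshold few genes were lower. Protein and fibres were not measured in these libraries. Of 12179 genes tested with edgeR's quasi-likelihood test, 32 (0.263%) had an adjusted p under 0.05, of which 28 (0.230%) rose and 4 (0.0328%) fell in the TA group. Of the 28 genes that rose, 9 are in at least 1 of 6 lists of matrix genes written for this comparison. Each of these lists held 16 to 24 of the 12179 genes tested. The lists were written with earlier results of these data known, so the count of 9 is a description and not independent support. Fold changes ran from -3.37 for Cela1 to 6.77 for Mlc1 on the log2 scale, and the groups did not overlap for any of the 32 genes. Genes picked by a small p from 3 against 3 rats tend to separate, so this is no added support for them. Over all genes tested the groups did not overlap for 15.1%, with 8.26% higher and 6.81% lower in the TA group. With the replicate block 203 genes (1.67%) were called, 159 (1.31%) higher and 44 (0.361%) lower, and all 32 were among them. At the study's own thresholds, p under 0.05 without adjustment and a log2 fold change beyond 1, there were 640 genes (5.25%), 516 (4.24%) higher and 124 (1.02%) lower. Counts within lists below are to be read beside these shares. The median log2 fold change of all genes tested was -0.01, and it was 0.18 where libraries were scaled by their totals alone.

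The count of 32 depended on single rats. It was 4, 1 and 10 without normal rats 1, 2 and 3, and 3, 30 and 61 without TA rats 1, 2 and 3. The directions of all 32 genes were the same in each of these 6 fits. Scara5, Mlc1 and Cela1 passed in 5 of the 6 fits and Ltbp1 in 4, while Ltbp2 and LOC100362384 passed in 0. In a single fit over all 9 libraries, where the wider spread of the model rats is shared, 12 of the 32 passed.

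**Figure D1:**
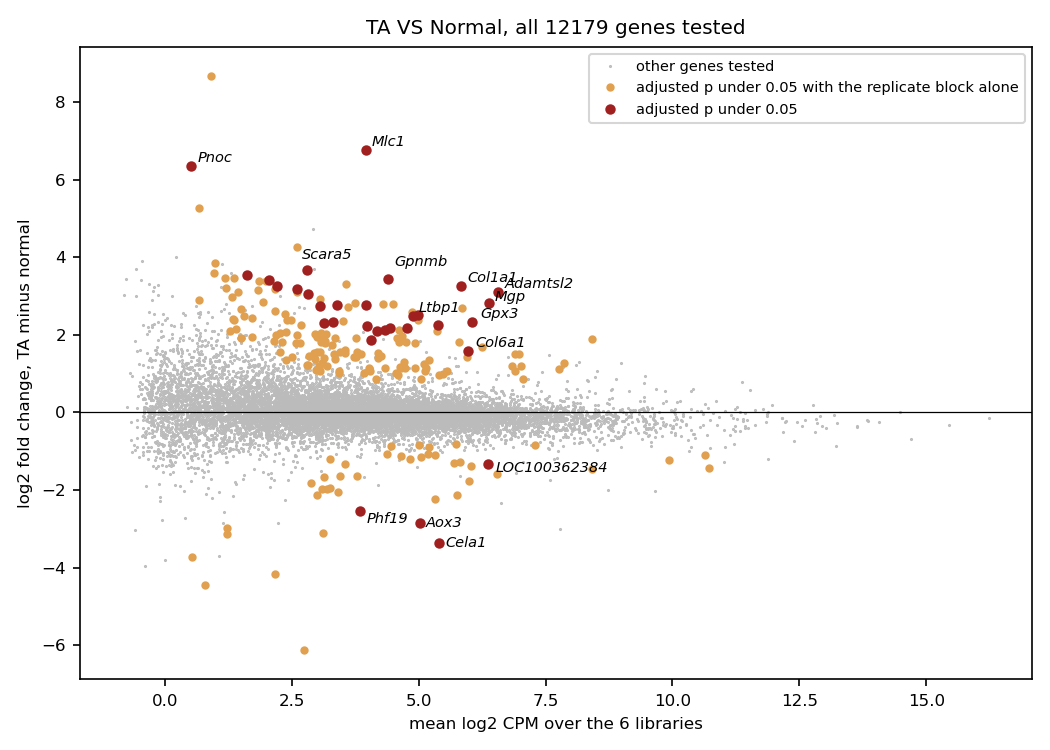
Each point is 1 of the 12179 genes tested, with its mean log2 CPM over the 6 libraries across and its log2 fold change, TA minus normal, up. The 32 genes with an adjusted p under 0.05 are dark red, 28 of them above 0 and 4 below, and orange points passed only in the fit with the replicate block.

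The gene with the smallest p was Scara5, a ferritin receptor of fibroblasts. Its CPM (counts scaled to library size after TMM normalization, so that levels are comparable between rats and not between genes) were 1.19, 0.814 and 0.971 in the normal rats and 14.2, 11.1 and 12.4 in the TA rats. The lowest TA rat stood at 9.36 times the highest normal rat, and the rats of each group lay close together (log2 fold change 3.66, standard error 0.29, adjusted p = 0.00874). Mlc1 encodes a membrane protein known from astrocytes, and its CPM were 0, 0.349 and 0.448 in the normal rats and 25.9, 39.9 and 25.8 in the TA rats. Mlc1 was near absent from normal liver, with 0, 6 and 6 reads, and had 413, 535 and 398 reads in the TA rats (log2 fold change 6.77, standard error 0.57, adjusted p = 0.00874). The reads of the 3 TA rats together were 126 times those of the normal rats per read counted (95% exact interval 71.7 to 244, counting error only). Pnoc, the precursor of the neuropeptide nociceptin, had 1 read over the normal rats and 115 over the TA rats, which gives a ratio of 129 (22.7 to 5130, counting error only). These intervals pool the reads of each group and leave out the spread between rats.

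Elastic fibre and microfibril genes had the highest median of the 6 matrix lists, 1.64 on the log2 scale over 16 genes tested. Of these 16 genes 3 passed the adjusted threshold, 7 passed with the replicate block and 10 passed the study's own thresholds, all higher in TA livers. Ltbp1, which ties latent TGF-beta into microfibrils, had CPM of 9.88, 8.55 and 8.14 in the normal rats and 60.7, 46.4 and 42.7 in the TA rats. All TA rats were above all normal rats, the lowest by 4.32 times (log2 fold change 2.495, standard error 0.22, adjusted p = 0.00874). Elastin itself, Eln, had CPM of 11.1, 6.75 and 10.4 in the normal rats and 63.3, 41.0 and 57.5 in the TA rats. The lowest TA rat was 3.70 times the highest normal rat (log2 fold change 2.52, standard error 0.27, adjusted p = 0.0163). Ltbp2, a further microfibril protein, rose as well, from 4.90, 2.09 and 2.76 CPM to 17.4, 14.7 and 16.7 (log2 fold change 2.33, standard error 0.34, adjusted p = 0.0405). Fbln5 and Fbln1, fibulins that bind elastin and microfibrils, had log2 fold changes of 1.85 and 2.93 with adjusted p of 0.0856 and 0.0887, and with the block of 0.00797 and 0.0263.

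Adamtsl2, a secreted glycoprotein that binds fibrillin and Ltbp1, rose as well. Its CPM were 26.4, 17.2 and 16.1 in the normal rats and 213, 116 and 181 in the TA rats. TA rat 2 was the lowest of its group, and still 4.42 times the highest normal rat (log2 fold change 3.10, standard error 0.31, adjusted p = 0.0130).

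Collagens came next. Of 24 collagen genes tested, 21 had a positive log2 fold change and the median was 1.45. The groups were apart and higher in TA livers for 15 of the 24, where 8.26% of all genes tested were apart and higher. The study's own thresholds were passed by 16, the block by 10 and the adjusted threshold by 2, Col1a1 and Col6a1. Col1a1, a chain of the main fibrillar collagen of scars, had CPM of 16.3, 9.89 and 6.498 in the normal rats and 155, 83.0 and 72.8 in the TA rats. TA rat 1 was the highest, and even the lowest TA rat was 4.48 times the highest normal rat (log2 fold change 3.25, standard error 0.42, adjusted p = 0.0236). Col6a1, a chain of the beaded-filament collagen around cells, had CPM of 32.3, 26.8 and 34.4 in the normal rats and 106, 100.1 and 75.9 in the TA rats (log2 fold change 1.59, standard error 0.21, adjusted p = 0.0255). The lowest TA rat had 2.21 times the level of the highest normal rat. Col3a1, the fibrillar partner of Col1a1, had CPM of 183, 122 and 127 in the normal rats and 732, 499 and 376 in the TA rats. The groups did not overlap, its adjusted p was 0.0522 (log2 fold change 1.89) and it was 0.00536 with the block. Col6a2 was alike, at 1.69 with adjusted p of 0.0545 and 0.00746 with the block.

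Among the 20 tested enzymes that process collagen the median was only 0.14, but 2 rose. Adamts2 removes the amino-terminal propeptide of fibrillar procollagens, and its CPM were 5.13, 3.26 and 3.44 in the normal rats and 37.8, 19.9 and 23.0 in the TA rats (log2 fold change 2.77, standard error 0.33, adjusted p = 0.0218). Loxl1, which crosslinks elastin, had CPM of 3.19, 1.92 and 2.76 in the normal rats and 25.8, 14.6 and 13.4 in the TA rats (log2 fold change 2.77, standard error 0.35, adjusted p = 0.0220). For both genes TA rat 1 was the highest and no TA rat came near a normal rat. Plod2, a lysyl hydroxylase that sets the type of crosslink, had a log2 fold change of 2.38 with an adjusted p of 0.0511 and of 0.0125 with the block.

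Lox, the lysyl oxidase best known for crosslinking collagen, had a fold change of the opposite sign to its relative Loxl1. Its CPM were 94.9, 78.7 and 23.1 in the normal rats and 16.5, 12.5 and 12.9 in the TA rats. The TA rats lay tightly together below all normal rats, of which rat 3 was the lowest. The log2 fold change was -2.23 (standard error 0.47), with an adjusted p of 0.115 in the main fit and of 0.0480 with the block. With each rat left out in turn Lox passed in 1 of 6 fits, the one without normal rat 3, and the adjusted p ran from 0.0377 there to 0.380.

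**Figure D2:**
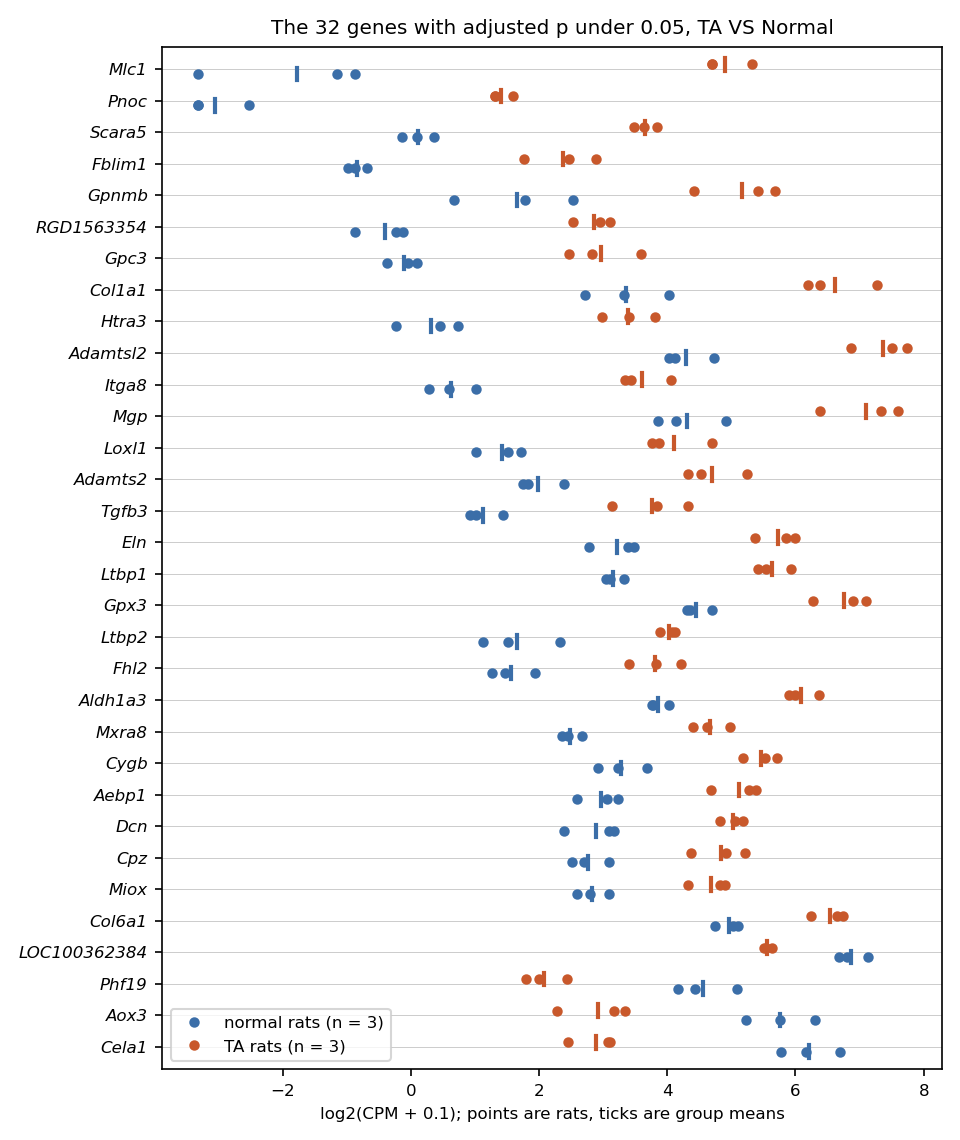
Each row is 1 of the 32 genes with an adjusted p under 0.05, with log2(CPM + 0.1) across, points for the 3 normal (blue) and 3 TA (orange) rats and ticks for group means. Blue and orange do not overlap in any row, and Mlc1 at the top shows the widest gap, 6.77 on the log2 scale of the fit.

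Genes of proteins that decorate or bind the fibres followed. Of 24 tested matrix glycoproteins and proteoglycans, 15 passed the study's own thresholds, 10 passed with the block and 1 passed the adjusted threshold, all higher in TA livers, and the median was 1.17. That gene was Dcn, decorin, a small proteoglycan on collagen fibrils, with CPM of 5.13, 8.90 and 8.44 in the normal rats and 33.2, 28.1 and 36.3 in the TA rats (log2 fold change 2.11, standard error 0.26, adjusted p = 0.0220). The highest TA rat had 1.29 times the level of the lowest, and none overlapped the normal rats. Sparcl1 and Smoc2, secreted calcium-binding proteins of the SPARC family, had log2 fold changes of 2.09 and 2.82, with adjusted p of 0.0522 and 0.0791, and 0.0119 and 0.00734 with the block. Svep1, a large adhesion protein, stood at 3.16 (adjusted p = 0.0522, and 0.0141 with the block).

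Several further secreted or membrane proteins of mesenchymal cells were among the 28 genes that rose. Mgp, an inhibitor of calcification, had CPM of 30.2, 14.4 and 17.4 in the normal rats and 161, 83.0 and 193 in the TA rats (log2 fold change 2.82, standard error 0.40, adjusted p = 0.0347). TA rats 1 and 3 were alike and rat 2 was lower, still well above normal. Aebp1, which binds collagen, Mxra8, a membrane protein of the immunoglobulin type, Cpz, a carboxypeptidase that binds Wnt proteins, and Htra3, a secreted protease, had log2 fold changes of 2.18, 2.21, 2.10 and 3.17. Their adjusted p ran from 0.0163 to 0.0255. Fhl2 and Fblim1, proteins of actin and focal adhesions, stood at 2.30 and 3.53 (adjusted p = 0.0296 and 0.0220).

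Laminins and integrins, the basement membrane and its receptors, had a median of 0.59 over 24 genes, with 5 past the study's own thresholds. Itga8, an integrin chain of mesenchymal cells, was the 1 that passed the adjusted threshold, with CPM of 1.41, 1.92 and 1.12 in the normal rats and 16.5, 10.7 and 10.1 in the TA rats (log2 fold change 3.05, standard error 0.34, adjusted p = 0.0167). Normal rats had under 2 CPM and TA rats 10 or more. Lamb1, a laminin chain, had a log2 fold change of 1.93 with an adjusted p of 0.0694 and of 0.00348 with the block.

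Matrix proteases and their inhibitors had 8 of 20 tested genes past the study's own thresholds, 4 with the block and 0 at the adjusted threshold, with a median of 0.82. The gelatinase Mmp2 had CPM of 16.4, 8.72 and 5.38 in the normal rats and 65.9, 48.98 and 45.1 in the TA rats, with groups that did not overlap (log2 fold change 2.39, adjusted p = 0.0551, and 0.00466 with the block). Mmp12, the macrophage elastase, stood at 3.38 (adjusted p = 0.0845, and 0.0394 with the block). The inhibitors Timp1 and Timp2 stood at 1.54 and 1.14, with adjusted p of 0.150 and 0.146, and with the block of 0.0376 and 0.0317.

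**Figure D3:**
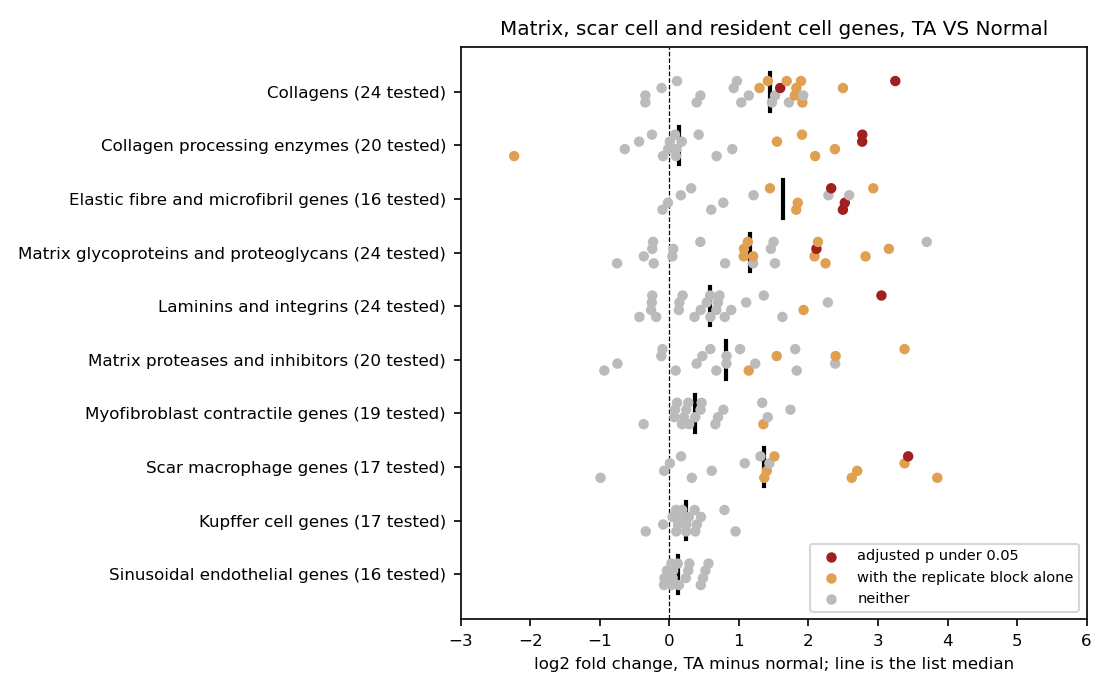
Each point is a tested gene of the list named at left, placed by its log2 fold change, TA minus normal, with a black line at the list's median. Collagens, elastic fibre genes and scar macrophage genes centre between 1.37 and 1.64, whereas Kupffer cell and sinusoidal endothelial genes centre at 0.24 and 0.13 with no called member.

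Signals that drive scarring were counted next. Of 27 tested genes of TGF-beta and PDGF signalling, 8 passed the study's own thresholds higher and 1 lower, and the median was 0.22. Tgfb3 was the 1 that passed the adjusted threshold, with CPM of 1.93, 2.62 and 1.79 in the normal rats and 19.9, 8.66 and 14.1 in the TA rats (log2 fold change 2.74, standard error 0.37, adjusted p = 0.0255). TA rat 2 was the lowest of its group and still 3.31 times the highest normal rat. The PDGF receptors Pdgfra and Pdgfrb, found on stellate cells and other mesenchymal cells, had log2 fold changes of 1.82 and 1.34, with adjusted p of 0.0672 and 0.0949, and 0.0253 and 0.0166 with the block. Pdgfd, a ligand of these receptors, stood at 2.501 (adjusted p = 0.139).

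Stellate cell genes did not move as 1 group. Of 18 tested, 10 were above and 8 below 0, the median was 0.09, and 2 rose, Adamtsl2 and Cygb. Cygb, cytoglobin, a globin of stellate cells, had CPM of 9.29, 7.50 and 12.7 in the normal rats and 52.2, 36.1 and 45.8 in the TA rats (log2 fold change 2.19, standard error 0.26, adjusted p = 0.0219). Its groups were clearly apart. In whole liver, more cells of a type and more RNA per cell cannot be told apart. The contractile genes of myofibroblasts had a median of 0.37 over 19 genes, with 2 past the study's own thresholds and 1, desmin (Des), past the block (log2 fold change 1.35, adjusted p = 0.253, and 0.0460 with the block). Portal fibroblast genes had 1 gene that rose among 8 tested, Scara5, and a median of 0.58.

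Enzymes and other proteins outside the matrix were also among the genes that rose. Aldh1a3, which makes retinoic acid from retinaldehyde, had CPM of 16.2, 13.7 and 13.5 in the normal rats and 82.3, 59.3 and 63.7 in the TA rats (log2 fold change 2.24, standard error 0.21, adjusted p = 0.00905). The lowest TA rat had 3.66 times the level of the highest normal rat. Gpx3, a secreted glutathione peroxidase, had CPM of 20.4, 19.7 and 25.8 in the normal rats and 137, 77.4 and 119 in the TA rats (log2 fold change 2.34, standard error 0.26, adjusted p = 0.0167). Miox, myo-inositol oxygenase, rose from 5.94, 6.86 and 8.44 CPM to 20.00, 28.3 and 29.8 (log2 fold change 1.88, standard error 0.25, adjusted p = 0.0255). Gpc3, a heparan sulfate proteoglycan of fetal liver and liver tumours, went from under 1 CPM in every normal rat to 11.9, 5.45 and 7.01 CPM in the TA rats (log2 fold change 3.27, standard error 0.41, adjusted p = 0.0220). RGD1563354, known by this identifier alone, had a log2 fold change of 3.41 (adjusted p = 0.0167). Gpx2, the glutathione peroxidase of epithelia, had 3 reads over the normal rats and 128 over the TA rats. That is a ratio of 47.8 (95% exact interval 15.99 to 235, counting error only), with an adjusted p of 0.0511 and of 0.0304 with the block.

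Scar-associated and resident macrophage genes gave different counts. Of 17 tested scar macrophage genes, 10 passed the study's own thresholds, 8 passed with the block and 1 passed the adjusted threshold, with a median of 1.37. Gpnmb, a glycoprotein of lipid-laden macrophages, was that gene, with CPM of 3.34, 5.70 and 1.49 in the normal rats and 51.5, 21.3 and 42.5 in the TA rats (log2 fold change 3.43, standard error 0.51, adjusted p = 0.0431). TA rat 2 was the lowest of the TA rats, at 3.73 times the highest normal rat. Lpl, lipoprotein lipase, had CPM of 21.3, 9.25 and 15.5 in the normal rats and 148, 59.4 and 91.6 in the TA rats (log2 fold change 2.70, adjusted p = 0.0511, and 0.00129 with the block), and the lysosomal membrane gene Cd63 stood at 1.51 (adjusted p = 0.0964, and 0.0202 with the block). By contrast 0 of 17 Kupffer cell genes, those of the resident macrophages, passed any of these rules, and the groups did not separate for any of them, with a median of 0.24. Their medians by rat were 0.84, -0.02 and -0.23 in TA rats 1, 2 and 3, so that TA rat 1 stood apart from the other 2. The difference between both lists was not tested.

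Other cells of the liver were described by the same counts, where 5.25% of all genes tested passed the study's own thresholds. Sinusoidal endothelial genes had 0 of 16 past any of the 3 thresholds or apart and a median of 0.13, and vascular endothelial genes 1 of 16 past the study's own thresholds, Ednrb, an endothelin receptor. Ednrb was also counted among the stellate cell genes. Its groups overlapped, with TA rat 3, the lowest, at 0.899 times the highest normal rat. Biliary cell genes had 8 of 18 past the study's own thresholds and 2 with the block, with a median of 1.12. Bicc1, a gene of bile ducts, had CPM of 4.09, 2.27 and 2.69 in the normal rats and 13.6, 9.71 and 13.1 in the TA rats (log2 fold change 2.01, adjusted p = 0.0511, and 0.00847 with the block). Onecut1 was counted in this list and is also a transcription factor of hepatocytes. Its CPM were 1.11, 2.21 and 1.42 in the normal rats and 14.5, 14.4 and 2.73 in the TA rats, with TA rat 3 close to the normal rats (adjusted p = 0.147). Of 20 lymphocyte genes 1 passed the study's own thresholds, Jchain, the joining chain of plasma cells (log2 fold change 1.24, adjusted p = 0.112, and 0.0222 with the block). MHC class II genes were all above 0 in the 10 tested, with a median of 0.46 and 0 past any of the 3 thresholds or apart.

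Among chemokines and their receptors, 4 of 26 tested genes passed the study's own thresholds higher and 2 lower, with a median of 0.11. Of the 26, 14 were above and 12 below 0, and the groups were apart and higher for 4 and lower for 4. The 2 lower genes past the study's own thresholds were Ackr2, with a log2 fold change of -1.61 (adjusted p = 0.134), and Cxcl12 (adjusted p = 0.173). Cx3cl1, the membrane-bound ligand of monocytes, and Ccl21, the ligand that draws lymphocytes, had log2 fold changes of 2.39 and 2.54, with adjusted p of 0.0639 and 0.0964, and 0.0120 and 0.00215 with the block. In the list of S100 proteins, annexins and galectins 5 of 25 passed the study's own thresholds, all higher, with a median of 0.60. Anxa5 and Lgals3 stood at 1.13 and 1.40, with adjusted p of 0.112 and 0.197, and 0.0199 and 0.0119 with the block.

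The 4 genes that fell differ in their known roles. Cela1, an elastase first known from the pancreas, had CPM of 104, 54.6 and 71.7 in the normal rats and 8.52, 5.38 and 8.37 in the TA rats. The lowest normal rat had 6.41 times the level of the highest TA rat (log2 fold change -3.37, standard error 0.31, adjusted p = 0.00905). Phf19, a Polycomb-like protein that guides the Polycomb repressive complex, had CPM of 21.5, 33.7 and 17.9 in the normal rats and 3.38, 5.30 and 3.89 in the TA rats (log2 fold change -2.54, standard error 0.32, adjusted p = 0.0220). Aox3, an aldehyde oxidase of hepatocytes, had CPM of 78.5, 53.9 and 37.5 in the normal rats and 8.90, 10.01 and 4.74 in the TA rats (log2 fold change -2.85, standard error 0.37, adjusted p = 0.0236). LOC100362384, a protein-coding gene known by its identifier alone, had CPM of 139.5, 103 and 112 in the normal rats and 45.4, 49.4 and 46.4 in the TA rats, and the highest TA rat had 1.09 times the level of the lowest (log2 fold change -1.33, standard error 0.20, adjusted p = 0.0431). Other pancreas genes were at or near 0, with 0 reads of Cpa1 in all 6 libraries and between 3 and 28 reads of Cel and Cela2a in each.

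Further lower genes were named by their size and their separation, and they did not pass the adjusted threshold. Hsd17b2, which oxidises sex steroids, had CPM of 387, 197 and 598 in the normal rats and 20.2, 88.6 and 37.6 in the TA rats (log2 fold change -3.01, adjusted p = 0.103). The gap between the groups was wide, and so was the spread within each. Mup4, a major urinary protein, had CPM of 18.6, 16.3 and 10.9 in the normal rats and 0.690, 3.06 and 1.62 in the TA rats (log2 fold change -3.11, adjusted p = 0.0522, and 0.0195 with the block). Its family holds near-identical copies among which reads can be split, so that its level is uncertain. LOC259245, given in the tables by identifier alone and not checked for near-identical copies, so that its level is uncertain too, had CPM of 1767, 843 and 1269.9 in the normal rats and 168, 347 and 432 in the TA rats (log2 fold change -2.03, adjusted p = 0.103, and 0.0670 with the block). Bcl6, a transcriptional repressor, stood at -2.12 (adjusted p = 0.119, and 0.00725 with the block), with CPM of 86.7, 64.8 and 112 in the normal rats and 14.5, 10.7 and 35.4 in the TA rats. Mtmr7, a lipid phosphatase, and Stac3, an adaptor known from muscle, stood at -2.04 and -2.34 (adjusted p = 0.0817 and 0.435).

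Upstream sequence is shown for 5 of the 32 genes, chosen among genes with a matched promoter sequence, which Scara5 lacked: a pair that rose with a small p (Mlc1, Ltbp1), a collagen (Col6a1) and a pair that fell (Cela1, Phf19). The 250 bases before each start were taken from RefSeq promoters of build GRCr8 and are written 5′ to 3′ on the strand of the gene, at chr7:121946699-121946948, minus strand for Mlc1, chr6:26177302-26177551, minus strand for Ltbp1, chr20:11905440-11905689, plus strand for Col6a1, chr7:133665062-133665311, minus strand for Cela1 and chr3:38593855-38594104, minus strand for Phf19. Capitals mark matches on either strand to any of 5 motifs. The TATA box was searched for with the letters TATAAA. The GC box was taken as GGGCGG and the CCAAT box by the letters of its name. The AP-1 site was searched for as TGANTCA, where N is any base. The letters of the TEAD site were GGAATG.
Mlc1: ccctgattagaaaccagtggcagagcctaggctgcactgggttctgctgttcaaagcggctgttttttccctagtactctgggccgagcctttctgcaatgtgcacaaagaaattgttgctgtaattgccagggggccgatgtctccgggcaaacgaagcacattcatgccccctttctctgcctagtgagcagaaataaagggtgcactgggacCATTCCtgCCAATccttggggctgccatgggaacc
Ltbp1: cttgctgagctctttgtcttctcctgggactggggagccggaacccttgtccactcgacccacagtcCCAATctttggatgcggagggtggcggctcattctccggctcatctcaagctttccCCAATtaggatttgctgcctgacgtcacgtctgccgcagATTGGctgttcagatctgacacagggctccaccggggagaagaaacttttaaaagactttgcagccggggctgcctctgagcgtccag
Col6a1: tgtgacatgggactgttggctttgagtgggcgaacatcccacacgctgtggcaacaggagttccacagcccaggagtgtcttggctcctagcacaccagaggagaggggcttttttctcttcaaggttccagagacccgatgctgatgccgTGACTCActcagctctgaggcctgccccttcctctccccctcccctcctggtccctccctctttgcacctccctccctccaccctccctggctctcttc
Cela1: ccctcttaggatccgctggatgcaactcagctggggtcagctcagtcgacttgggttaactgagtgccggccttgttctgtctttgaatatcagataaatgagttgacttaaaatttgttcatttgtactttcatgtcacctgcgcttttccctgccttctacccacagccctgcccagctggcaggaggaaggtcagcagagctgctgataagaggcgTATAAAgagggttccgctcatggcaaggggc
Phf19: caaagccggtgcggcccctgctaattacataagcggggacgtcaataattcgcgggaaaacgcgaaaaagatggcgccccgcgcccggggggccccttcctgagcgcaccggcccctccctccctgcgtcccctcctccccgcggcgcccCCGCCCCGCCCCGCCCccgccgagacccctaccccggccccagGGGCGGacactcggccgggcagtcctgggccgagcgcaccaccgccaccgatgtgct

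The upstream stretches differed in what they held. Cela1 had a TATA box whose first base lay 31 bases before the start and no other match, and Phf19 had 4 GC boxes, 3 of them overlapping, at 74.0% GC. Ltbp1 had 3 CCAAT boxes between 183 and 88 bases before the start, Mlc1 a CCAAT box and a TEAD site within 35 bases of it, and Col6a1 an AP-1 site 99 bases before it. RefSeq promoters were matched for 19 of the 28 genes that rose and for all 4 that fell. The TATA box was found in 3 of the 19 and in 13.1% of 27457 promoters, the GC box in 9 of the 19 and in 32.4%, and the CCAAT box in 3 and in 34.3%. The AP-1 site was found in 2 of the 19 (Col6a1 and Gpnmb) and in 6.36% of all, and the TEAD site in 4 (Fhl2, Gpx3, Loxl1 and Mlc1) and in 11.8%. A match gives letters and does not show that a factor binds there.

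Beside the model group the same genes fell into several patterns. The model comparisons share the normal or the TA libraries with TA VS Normal, so that their values are only set side by side, and 0 of 12781 genes (0.00%) passed an adjusted p under 0.05 in TA VS Model, where the smallest was 0.230 and 1999 genes had an unadjusted p under 0.05 (edgeR, the only tool run for it). Levels in this paragraph and the next are CPM with all 9 libraries scaled together. Scara5 had 18.5, 12.2 and 22.9 CPM in model livers and 16.1, 12.6 and 14.2 after TA, which overlapped, against about 1 in the normal rats (Model VS Normal 4.02, TA VS Model -0.32 on the log2 scale). Phf19 was as low in the model rats, at 4.44, 4.08 and 3.32, as in the TA rats, at 3.85, 6.01 and 4.48 (TA VS Model 0.27). Adamtsl2, Aldh1a3, Gpc3 and Pnoc likewise had TA VS Model values of -0.44, -0.30, -0.54 and 0.32, with overlapping groups. Ltbp1 had 74.5, 78.3 and 80.4 CPM in model livers and 69.0, 52.6 and 49.1 after TA, lower without overlap by a small step (-0.45, unadjusted p = 0.101).

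Other scar genes had much higher means in the model rats than in the TA rats, and much of that gap rested on model rat 1. Col1a1 had 4442, 232 and 243 CPM in model livers and 176, 94.0 and 83.7 after TA. Its TA VS Model value was -3.80 (unadjusted p = 0.0156) and -0.999 without model rat 1. Gpnmb, Fblim1 and Loxl1 had TA VS Model values of -3.24, -3.12 and -2.52, and of -0.26, -1.64 and -1.44 without that rat. Fhl2 did not rest on that rat, at -1.31 with it and -1.30 without it.

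A few genes were farther from normal in the TA rats than in the model rats. Mlc1 had 0, 6.06 and 10.8 CPM in the model rats, all below the TA rats at 29.4, 45.3 and 29.7 (TA VS Model 2.66, unadjusted p = 0.0481). Cish and Socs2, inhibitors of cytokine and growth hormone signalling, had lower levels in every model rat than in every TA rat. Their Model VS Normal values were 0.85 and 1.02 on the log2 scale, and that of Socs2 was -0.15 without model rat 3. Cish stood at 20.4, 43.1 and 8.65 CPM after TA, against 5.16, 4.02 and 3.82 in model livers and 3.07, 1.80 and 2.35 in normal livers (TA VS Normal 3.30, adjusted p = 0.0705, and 0.0315 with the block). Socs2 stood at 41.5, 24.7 and 50.0, 5.16, 4.74 and 23.3 and 9.80, 2.25 and 4.36 CPM in the same order of groups (TA VS Normal 2.80, adjusted p = 0.0845, and 0.00869 with the block). Lox and Nqo1, an NRF2 target that reduces quinones, were lower in the TA rats than in either other group. Nqo1 stood at 5.34, 8.54 and 8.65 CPM after TA, against 25.8, 26.9 and 15.3 in model livers and 14.8, 20.7 and 19.6 in normal livers (TA VS Normal -1.32, adjusted p = 0.113, and 0.0153 with the block). Lox had 133, 47.3 and 35.7 CPM in model livers and 18.7, 14.2 and 14.8 after TA (TA VS Model -2.18, unadjusted p = 0.00257). None of these differences from the model group passed the adjusted threshold.

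**Figure D4:**
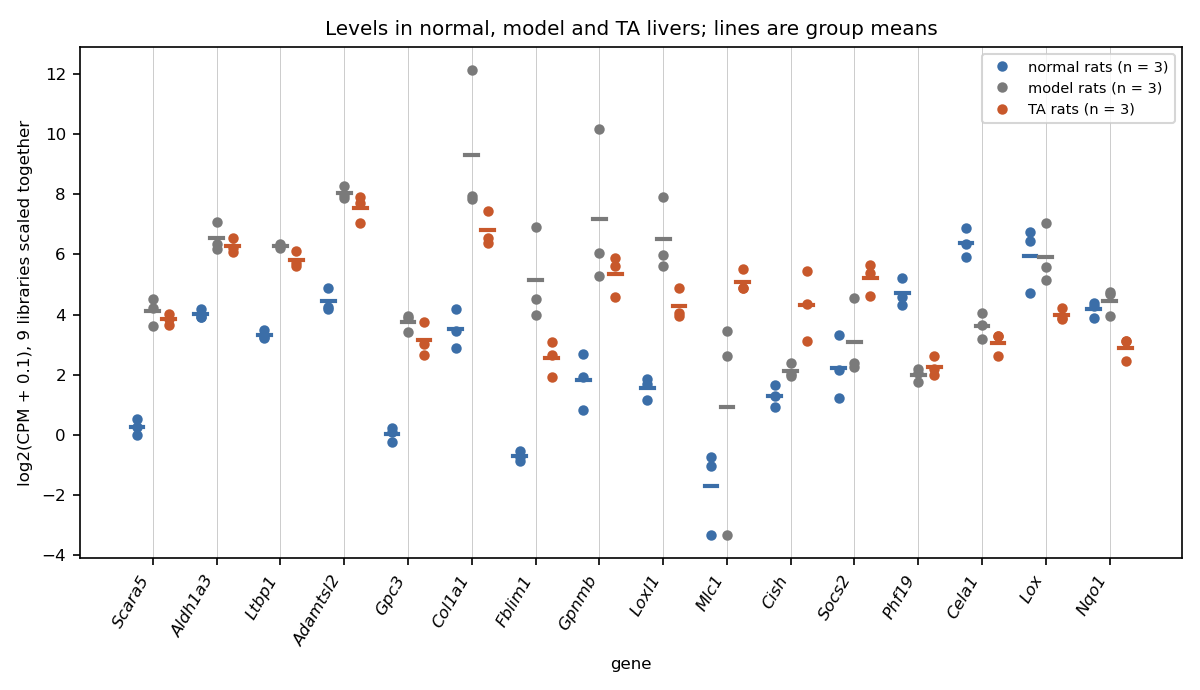
For 16 genes, log2(CPM + 0.1) is shown up for the 3 normal (blue), 3 model (grey) and 3 TA (orange) rats, all 9 libraries scaled together, with lines at group means. Scara5 and Phf19 overlap between model and TA rats, Col1a1 and Gpnmb reach far higher in model rat 1, and Mlc1, Cish and Socs2 are highest in the TA rats.

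Genes of hepatocyte work differed little by comparison. Among 45 proteins that hepatocytes secrete, 0 passed the adjusted threshold or the block and 1, Apoc1, passed the study's own thresholds. The groups were apart and lower in TA livers for 12 of the 45 and higher for 0, where 6.81% of all genes tested were apart and lower, and the median was -0.15, or 0.02 under library totals. Ttr, the thyroxine carrier transthyretin, had CPM of 14309, 10838 and 11849 in the normal rats and 5792, 7974 and 6698 in the TA rats (log2 fold change -0.85, adjusted p = 0.247). Apoc1 and Apoe, apolipoproteins of lipoprotein remnants, stood at -1.20 and -0.69 (adjusted p = 0.253 and 0.396). All 3 of these genes were lower in every TA rat than in every normal rat.

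Enzymes that conjugate drugs and toxins were apart and lower for 10 of 31 genes tested, and 1 of the 31 passed the block. That gene was Ugt2b37, a glucuronosyltransferase, with CPM of 1558, 2033 and 3782 in the normal rats and 677, 872 and 1205 in the TA rats (log2 fold change -1.42, adjusted p = 0.199, and 0.0195 with the block). The glutathione transferases Gsta1, Mgst2 and Mgst3 stood at -0.71, -0.75 and -0.97 (adjusted p = 0.218, 0.151 and 0.218), and Gsta1 and Ugt2b37 have close relatives that can share their reads. The list median was -0.32, and -0.11 under library totals. Cytochrome P450 genes of families 1 to 4 had a median of 0.04 over 34 genes, with 2 higher and 1 lower past the study's own thresholds. Cyp2f4 was the lower one, with CPM of 98.2, 71.8 and 111 in the normal rats and 35.1, 27.6 and 46.1 in the TA rats (log2 fold change -1.37, adjusted p = 0.0946, and 0.00656 with the block). Cyp4a8, a fatty acid hydroxylase, stood at 1.31 (adjusted p = 0.195). The xenobiotic receptor Ahr stood at -0.82 (adjusted p = 0.196).

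Both ends of the liver lobule had more genes below 0 than above. Pericentral genes, those of hepatocytes around the central vein, had 12 of 18 below 0 and a median of -0.30, or -0.11 under library totals, and 4 were apart and lower and 1 apart and higher. That gene was Aldh1a1, a retinaldehyde dehydrogenase, with CPM of 46.8, 80.0 and 48.4 in the normal rats and 292, 85.6 and 96.4 in the TA rats (log2 fold change 1.44, adjusted p = 0.350, and 0.211 with the block). Periportal genes, those of hepatocytes near the portal tract, had 15 of 17 below 0 and a median of -0.34, or -0.16 under library totals, and 4 were apart and lower, Cyp2f4 among them. Hal, which starts the breakdown of histidine, had CPM of 338, 338 and 333 in the normal rats and 114, 214 and 261 in the TA rats (log2 fold change -0.78, adjusted p = 0.445, and 0.141 with the block).

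Most metabolic lists held few calls. Bile acid genes had 0 of 26 past the adjusted, block or study thresholds and a median of -0.31, or -0.12 under library totals, and the groups were apart and lower for 4 of the 26. Urea cycle and amino acid genes had 0 of 39 past these thresholds and a median of -0.16, or 0.01 under library totals, with 2 apart and lower and 1 apart and higher. Cholesterol synthesis genes had 0 of 25 past them and a median of 0.29, with 1 apart and lower. In the cholesterol list the medians by rat were 0.86, -0.03 and -0.10 in TA rats 1, 2 and 3. Oxidative phosphorylation genes had 0 of 43 past these thresholds, 39 of 43 below 0 and a median of -0.28, or -0.09 under library totals, and 6 of the 43 were apart and lower. Of 32 genes of fatty acid oxidation and ketogenesis, 3 higher and 1 lower passed the study's own thresholds, and 0 passed the adjusted threshold or the block. Of 28 genes of fatty acid and triglyceride synthesis, 2 higher and 1 lower passed the study's own thresholds and 1 the block. Over all genes tested 5.25% passed the study's own thresholds. Gpat3, an acyltransferase that starts triglyceride synthesis, had CPM of 2.82, 0.582 and 0.299 in the normal rats and 18.7, 5.90 and 6.94 in the TA rats (log2 fold change 3.11, adjusted p = 0.185, and 0.00902 with the block). Scd, the stearoyl-CoA desaturase, stood at -1.64 (adjusted p = 0.198). Glycerophospholipid genes, a pathway the study followed, had 3 of 44 past the study's own thresholds, 1 with the block and a median of 0.10. Its gene with the smallest p was Etnk2, ethanolamine kinase, with CPM of 358, 417 and 422 in the normal rats and 227, 272 and 243 in the TA rats (log2 fold change -0.69, adjusted p = 0.224).

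Most signalling and stress lists held few calls as well. PI3K, AKT, mTOR and NF-kB genes, also followed by the study, had 0 of 36 past the same thresholds and a median of 0.08, with 2 apart and lower and 1 apart and higher. Apoptosis and p53 genes had 0 of 26 past the adjusted and study thresholds and 1 lower with the block, Phlda3, a p53 target that restrains AKT (log2 fold change -0.85, adjusted p = 0.325, and 0.0282 with the block). Cell cycle genes had 1 of 35 and interferon-stimulated genes 2 of 30 past the study's own thresholds, and neither list had a gene past the other 2. Over all genes tested 5.25% passed the study's own thresholds and 1.67% the block. Of 23 NRF2 target genes, 1 higher and 2 lower passed the study's own thresholds, and as many passed the block. Growth hormone and IGF axis genes had 2 of 19, both higher, past each of these 2. Circadian clock genes had 2 of 18 past the study's own thresholds, both lower, and 0 past the block. None of these 3 lists held a gene past the adjusted threshold. Of 25 genes of endoplasmic reticulum stress 1 passed the block, Xbp1, a transcription factor of secretory cells, with CPM of 80.7, 77.3 and 37.9 in the normal rats and 223, 214 and 119 in the TA rats (log2 fold change 1.504, adjusted p = 0.151, and 0.00540 with the block). Of 20 tested genes from the study's own assays 1 passed the adjusted threshold, Col1a1, and Col3a1 passed with the block. This list was chosen by the study on these rats and is not independent evidence of a direction.

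**Figure D5:**
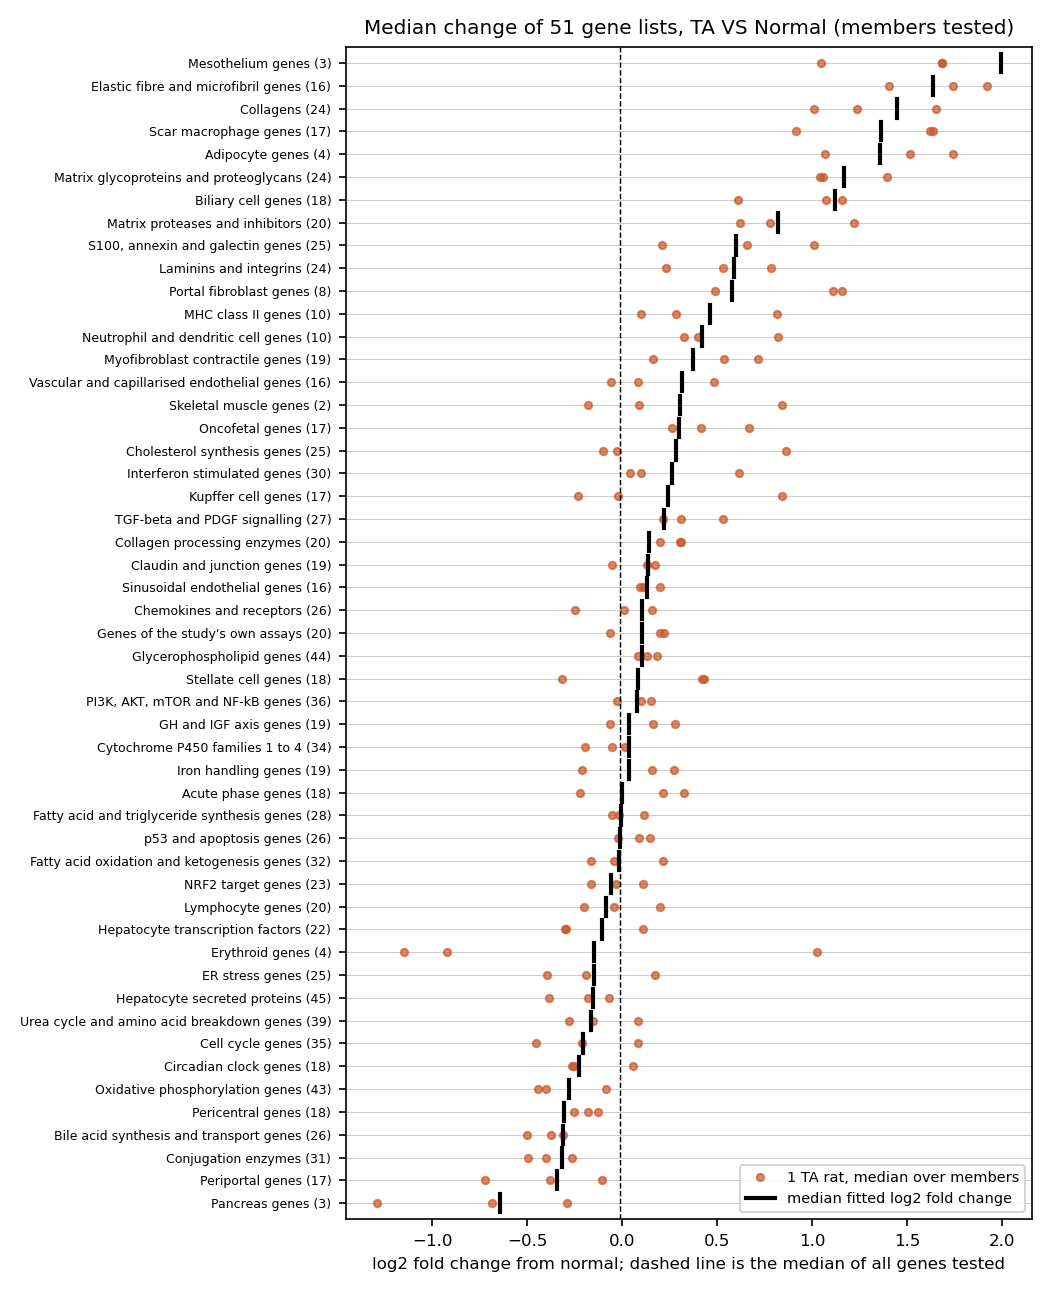
For each of 51 gene lists the black tick is the median log2 fold change of its tested members (their number in brackets), and the 3 orange points are the medians in TA rats 1 to 3 against the mean of the normal rats on log2 CPM with a prior count of 2. Apart from 2 lists of 3 or 4 members, elastic fibre, collagen and scar macrophage genes lie at the top, most lists of hepatocyte genes lie between -0.4 and 0.1, and the dashed line is the median of all genes tested.

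Markers of tissue that can come along with a liver sample were summed over each list. Mesothelium genes, of the capsule around the liver, summed to 19.6 to 45.7 CPM in the normal rats and 32.7 to 42.9 in the TA rats, but 2 of the 3 tested, Wt1 and Msln, passed the study's own thresholds. Adipocyte genes summed to 125 to 156 and 180.5 to 269 CPM, where Lpl and Fabp4 are shared with the scar macrophage list and Adipoq had at most 1 read in any of the 6 libraries. Skeletal muscle genes summed to under 7 CPM in every library. Erythroid genes summed to 446 to 775 CPM in the normal rats and 235 to 1407 in the TA rats, with TA rat 3 the highest. The part of such tissue in the matrix results was not tested.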

How the data were processed

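Liver poly(A) RNA of 9 rats was sequenced, and the 6 libraries of the TA and normal control groups were compared. The deposited tables hold unnormalized read counts, in a pair that shares the model libraries. Per the paper's methods, reads were trimmed with Trimmomatic and Cutadapt, mapped with STAR and counted with HTSeq-count. These methods name a human genome and the submitters' processing notes name mm9 and DESeq2, while the symbols are those of rat. The mapping reference is therefore unsettled, and genes that mapped poorly could be undercounted in all groups alike. FPKM values deposited by the authors were used only to show that liver was present. Their normalized signals, log2 fold changes and p-values were not used here.

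The tables list 16938 and 16948 genes, and the 16730 in both were joined on the symbol. Another 208 genes were listed with the normal rats alone and 218 with the TA rats alone, at no more than 21 and 6 reads in any of those rats, and were left out. Of the shared genes 4551 failed the filter on low counts (filterByExpr) and 12179 were tested. Tools were R 4.3.3, edgeR 4.0.16 (quasi-likelihood test, TMM normalization, group as the only term), limma 3.58.1 and DESeq2 1.42.0. Adjustment (Benjamini-Hochberg) ran over all genes tested, and the standard error is the log2 fold change over the square root of the F statistic. Nothing says that the libraries came from separate cages or days. The p-values set the difference between the groups against the spread between these libraries alone.

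Replicate numbers come from the library titles. Departures of TA and normal rats from the mean of their own group correlated at 0.258, 0.426 and 0.501 within numbers. Between unlike numbers the correlations ran from -0.452 to 0.171. The numbers were therefore treated as pairs in a blocked fit, given beside the main one for some genes. Since departures within a group sum to 0, some matching of rats correlates in any case, so these values do not show that the pairs are real. Named genes are those with an adjusted p under 0.05, the 10 highest and 10 lowest log2 fold changes among genes past an unadjusted p of 0.05 that had 3 or more as mean log2 CPM and did not overlap between groups, and up to 4 genes per list by smallest p. Fabp4, Adipoq, Cpa1, Cel and Cela2a were named beside marker lists after their values were seen. The members, the lists and the tests were chosen with earlier results of these data known. No set test was run, and lists are described by counts and medians. Alternatives were other scalings, filters, tools and forms of the fit, and leaving out each library. The TA control and other dose groups of the study were not analysed here.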

Additional observations from a re-analysis of the deposited data

How the results depend on the processing

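The 32 genes with an adjusted p under 0.05 became 56 with library totals alone, 360 with DESeq2, 126 with limma voom with sample quality weights, 76 with no filter beyond a count above 0, 203 with the replicate block and 14 with all 9 libraries in 1 fit. With each library left out the count ran from 1 to 61. It stayed between 32 and 47 with the other scalings, the stricter filter, the robust fit and the newer quasi-likelihood form. Of the 32 genes, 31 or 32 were called again under every alternative that kept the 6 libraries on their own, and 12 in the fit over 9 libraries, where the added spread of the model rats enters. The 640 genes at the study's own thresholds stayed within 1.5 times under every alternative, between 525 and 918 with each library left out, and at 730 with the block. Library totals moved the median of all genes from -0.01 to 0.18, so that list medians near 0 changed sign with it. No log2 fold change reversed in TA VS Normal among the 87 genes followed under the alternatives. Some genes named above, such as Aldh1a1, Hal, Phlda3, Wt1, Msln and Fabp4, were not followed in this way. Beside the model group, signs turned for 4 of the values where a library was left out: Model VS Normal ran from -1.19 to 0.14 for LOC100362384, from -0.84 to 0.33 for Lox and from -0.15 to 1.74 for Socs2, and TA VS Model from -0.46 to 0.040 for Aldh1a3. The cause of these shifts was not tested. Even at the depth of these libraries, low genes such as Pnoc rest on few reads.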
